A study of Mus musculus with 107 samples.

Results

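The T cell-inflamed gene expression profile (Tcell_inf_GEP) is a set of 18 genes of antigen presentation, cytotoxic lymphocytes and interferon responses, and the study used it to sort its mouse tumor models into T cell-inflamed and non-inflamed models. The 5 T cell-inflamed models were Hepa 1-6 (hepatocellular carcinoma, C57L/J hosts), CT26.WT (colorectal cancer, BALB/cAnNCrlCrlj hosts), RAG (renal cell carcinoma, BALB/cAnNCrlCrlj hosts), MC38 (colorectal cancer, C57BL/6NCrl hosts) and MBT2 (bladder cancer, C3H/HeNCrl hosts). The 7 non-inflamed models were BNL 1ME A.7R.1 (hepatocellular carcinoma), Renca (renal cell carcinoma), 4T1 and EMT6 (both breast cancer), which grew in BALB/cAnNCrlCrlj hosts, B16-F10 (melanoma, C57BL/6NCrl hosts), LL/2 (lung cancer, C57BL/6JCrl hosts) and KLN205 (lung cancer, DBA/2NCrl hosts). Of the 107 tumors in the table, 35 were treatment-naive, 14 of T cell-inflamed and 21 of non-inflamed models, with 3 tumors in each model but MC38, which had 2. Each model is 1 cell line transplanted under the skin of 7-week-old immunocompetent mice, and the RAG cells had first been adapted by growth in vivo. Hepa 1-6 and BNL 1ME A.7R.1 grew in male hosts and the others in female hosts. Treatment-naive tumors were taken at about 100 mm3, and other mice of each model were left without treatment (NT) or given lenvatinib (LEN), an oral inhibitor of VEGF and FGF receptors and other kinases, for 7 days at a daily dose of 10 mg/kg, and their tumors were sampled on day 8. The day 8 tumors comprised 15 NT and 15 LEN tumors of T cell-inflamed models and 21 NT and 21 LEN tumors of non-inflamed models. No genotype other than that of the line and host strain is given, and BALB/cAnNCrlCrlj and C57BL/6NCrl hosts occur in both groups.

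A T cell-inflamed tumor is one in which lymphocytes have entered and interferon gamma is being made. Interferon gamma, released by T and NK cells, binds the Ifngr1 and Ifngr2 chains and acts through the kinases Jak1 and Jak2 to switch on the chemokines Cxcl9, Cxcl10 and Cxcl11, guanylate-binding proteins, immunity-related GTPases and the genes of MHC class I loading. Type I interferons switch on an overlapping set of antiviral genes. The comparison asks which genes outside the T cell markers separated the 2 groups of models.

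Expression was analyzed as log2(TPM + 1), where TPM is the share of a gene in a tumor's RNA per length on a total common to all tumors. Tumors were averaged within each model, and each difference is the mean of the 5 T cell-inflamed models minus the mean of the 7 non-inflamed models, with its SE. The T cell-inflamed models were chosen by the level of the 18 profile genes in the same treatment-naive tumors, so genes that track the profile were bound to differ there, and the adjusted p values of treatment-naive tumors are given as a description. The day 8 NT tumors come from mice that did not set the groups, but from the same 12 models. P-values measure the spread between models. In bulk tumors, fewer cells of a type and less RNA per cell cannot be told apart.

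A score rebuilt as the mean z-score of the 18 profile genes was 2.01 in Hepa 1-6, 0.763 in MC38, 0.622 in RAG, 0.257 in CT26.WT and -0.0259 in MBT2. Just outside the boundary stood Renca with -0.0964 and 4T1 with -0.189, and the other non-inflamed models lay between -0.812 and -0.359. The step between MBT2 and Renca was small beside the spread of their tumors, which ran from -0.187 to 0.135 in MBT2 and from -0.218 to -0.0190 in Renca. One 4T1 tumor had a score of 0.389, above every MBT2 tumor. Hepa 1-6 and KLN205 were far apart, whereas the models on either side of the boundary overlapped. In the day 8 NT tumors the score of CT26.WT was -0.235, with tumors from -1.03 to 0.379. That of the non-inflamed 4T1 was -0.232, so the 2 groups of models were not separated by the score at day 8.

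**Figure D1:**
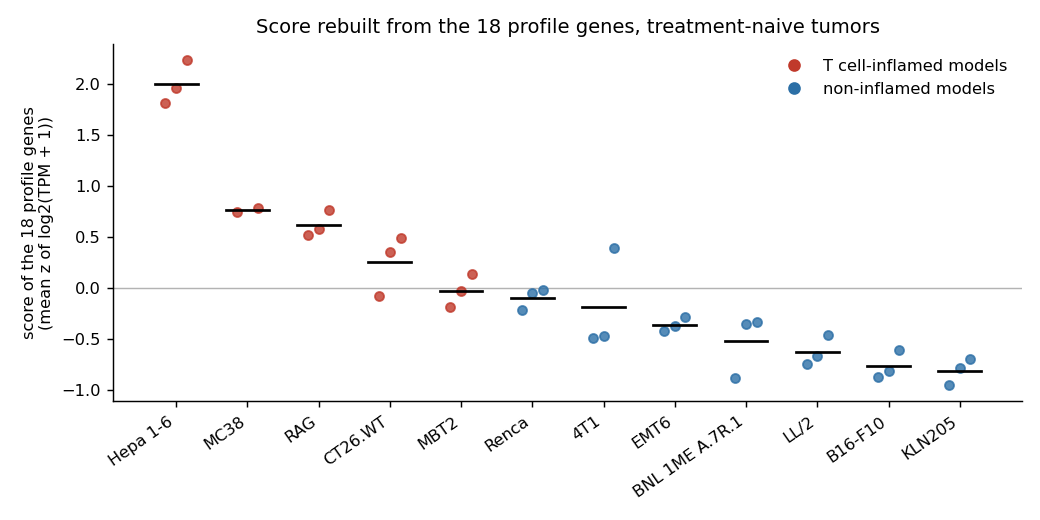
Score of the 18 profile genes (mean z of log2(TPM + 1), y axis) in each treatment-naive tumor (points), with the mean of each model as a bar, models in order of their mean, and colours for the groups. Hepa 1-6 stands alone at 2.01, and the MBT2 and Renca means, -0.0259 and -0.0964, lie side by side.

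Outside the profile and the T cell markers, the gene with the smallest adjusted p in treatment-naive tumors was Fcgr4, an activating Fc gamma receptor of myeloid cells. Other genes had larger differences. Its TPM was 38.3 in Hepa 1-6, 31.5 in CT26.WT, 28.8 in RAG, 48.0 in MC38 and 24.6 in MBT2, and in the non-inflamed models it ran from 4.27 through a median of 6.94 to 9.69. Even the single tumors did not overlap, since the lowest T cell-inflamed tumor had 19.4 and the highest non-inflamed tumor 18.3. The difference was 2.14 ± 0.24 on the log2 scale (limma, adjusted p = 0.0105). Of 17530 genes tested, Fcgr4 was the 1 that passed the adjusted threshold as higher (0.0057% of the genes), and 0 passed as lower (0%). At an unadjusted p under 0.05, 925 genes were higher (5.28%) and 322 lower (1.84%). The median difference over all genes was 0.07, and 58.5% of them were above 0. In the day 8 NT tumors the TPM of Fcgr4 was 17.7 to 35.1 in the T cell-inflamed models and 2.28 to 17 in the others, a difference of 1.82 ± 0.39 (adjusted p = 0.114). The treatment-naive call was lost under 10 of 62 alternatives, in which the difference stayed between 1.93 and 2.17. It was lost when either Hepa 1-6 or CT26.WT was left out (limma, adjusted p = 0.0649 and 0.0539) and under either rescaling of TPM described further on (0.0693 and 0.0770). It was also lost without the 3 models the study named as high in microvessel density (MVD-high; 0.104), without the models in male hosts (0.127), within BALB/c hosts (0.290), in a fit of single tumors with and without a replicate block (0.104 and 0.0937) and by the two-group test of the study (0.0721).

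The next 9 genes did not pass the adjusted threshold in treatment-naive tumors. They were taken, in order of unadjusted p, from the genes for which the 5 T cell-inflamed models all lay above the 7 others. This gap was thus a condition of their choice. Such a gap was found for 114 of the 17530 genes as higher (0.65%) and for 19 as lower (0.108%). Zbp1, an interferon-induced sensor of Z-form nucleic acid, had a TPM of 109 in Hepa 1-6, 95.1 in CT26.WT, 165 in RAG, 271 in MC38 and 51.7 in MBT2, against 7.46 to 27.3 in the non-inflamed models with a median of 20.8. Its difference was 2.77 ± 0.39 in treatment-naive tumors (limma, adjusted p = 0.0605) and 2.71 ± 0.44 at day 8 (adjusted p = 0.0402). Its difference was larger than that of Fcgr4 and so was its SE.

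Klrk1 encodes NKG2D, an activating receptor of NK and CD8 T cells, and its TPM was 21.8 in Hepa 1-6, 12.4 in CT26.WT, 6.83 in RAG, 18.1 in MC38 and 11.3 in MBT2, while the non-inflamed models ran from 1.27 through 3.04 to 4.5. The difference of Klrk1 was 2.00 ± 0.30 (adjusted p = 0.0605), and at day 8 it was 1.92 ± 0.27 (limma, adjusted p = 0.0162). Klra2, or Ly49B, of the Ly49 family of lectin-like receptors, differed by 1.65 ± 0.28 and Gimap7, one of the GTPases of immunity-associated proteins made in lymphocytes, by 1.42 ± 0.24 (adjusted p = 0.0682 and 0.0722). Neither passed at day 8, where the differences were 1.58 ± 0.43 and 1.39 ± 0.25 (adjusted p = 0.338 and 0.0632).

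Fgl2, a fibrinogen-like protein of macrophages and T cells, had a TPM of 45.5 in Hepa 1-6, 24.4 in CT26.WT, 15.5 in RAG, 46.3 in MC38 and 30.0 in MBT2, and of 2.70 to 10.8 in the non-inflamed models with a median of 6.37. It differed by 2.17 ± 0.34 in treatment-naive tumors and by 1.94 ± 0.28 at day 8 (limma, adjusted p = 0.0605 and 0.0202). Fam26f, an interferon-inducible membrane protein also called Calhm6, ran from 4.98 to 13.3 TPM against 0.340 to 2.40, with differences of 2.15 ± 0.32 and 1.83 ± 0.21 (adjusted p = 0.0605 and 0.0105). Phf11b differed by 2.06 ± 0.34 and 1.88 ± 0.34 (adjusted p = 0.0682 and 0.0665). At day 8 too, all 3 genes were without overlap between the groups, which in treatment-naive tumors was a condition of their choice.

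The last 2 of the 10 were Gm4841 and Gm4951, interferon-inducible GTPases with close relatives in the genome, so that reads may have been divided among copies. Gm4951 had a TPM of 42.2 in Hepa 1-6, 18.1 in CT26.WT, 15.2 in RAG, 16.5 in MC38 and 6.10 in MBT2, against 0.713 to 4.53 in the non-inflamed models with a median of 2.36. Its difference was 2.44 ± 0.38, and at day 8 it was 2.17 ± 0.28 (limma, adjusted p = 0.0605 and 0.0105). Gm4841 differed by 2.65 ± 0.41 and 2.19 ± 0.38 (adjusted p = 0.0605 and 0.0608). MBT2 had the lowest value of the T cell-inflamed models for both.

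Since many of these genes are known targets of interferons, the bases before their start sites were searched on both strands for 2 elements, the gamma-activated site (GAS, written TTCNNNGAA) and the interferon-stimulated response element (ISRE, written GAAANNGAAA). The sequences are those of RefSeq (GRCm38.p6), which were at hand for 6 of the 10 genes, and 250 bases before the start were read. Zbp1, Fam26f, Gm4841 and Gm4951 had no sequence and were not searched. Of the 6 genes, 4 held at least 1 element (66.7%), against 11.1% of the 27025 genes in the sequence table. Among the genes tested in treatment-naive tumors that had a sequence, the share was 10.2%. Of the 41 genes of the whole table that were higher at an adjusted p under 0.1, 27 had a sequence and 10 held an element (37%). Of the interferon gamma list described below, 16 genes had a sequence and 11 of them held an element (68.8%). Among the 10 genes named below as lower, 8 had a sequence and 1 held an element (12.5%). A match is a match of letters and does not show that a factor binds. The promoters of Fcgr4, Fgl2, Phf11b and Klra2 are shown because they are the 4 of the 6 searched genes with a match. Igtp is shown because it passed at day 8 and carries both elements close to each other without overlap. Lmbr1 is shown because it had the clearest lower value and carries neither. Capitals mark the GAS or ISRE match, and these genes were chosen after their values were seen. They lie at chr1:171018676-171018925 (Fcgr4, plus strand, ISRE starting 73 bases before the start), chr5:21372423-21372672 (Fgl2, plus strand, GAS at 36 bases), chr14:59341331-59341580 (Phf11b, minus strand, ISRE at 50 bases), chr6:131247363-131247612 (Klra2, minus strand, GAS at 190 bases), chr11:58199306-58199555 (Igtp, plus strand, GAS at 45 and ISRE at 34 bases) and chr5:29378391-29378640 (Lmbr1, minus strand).
Fcgr4: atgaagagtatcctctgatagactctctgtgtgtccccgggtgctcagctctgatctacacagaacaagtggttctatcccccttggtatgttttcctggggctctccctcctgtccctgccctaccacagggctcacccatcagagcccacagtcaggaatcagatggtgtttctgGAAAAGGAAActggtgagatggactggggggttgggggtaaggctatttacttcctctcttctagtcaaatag
Fgl2: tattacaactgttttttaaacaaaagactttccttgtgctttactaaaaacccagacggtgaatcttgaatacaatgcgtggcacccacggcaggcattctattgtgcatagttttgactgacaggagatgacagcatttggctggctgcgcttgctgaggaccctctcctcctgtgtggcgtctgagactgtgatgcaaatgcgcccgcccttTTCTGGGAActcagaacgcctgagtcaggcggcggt
Phf11b: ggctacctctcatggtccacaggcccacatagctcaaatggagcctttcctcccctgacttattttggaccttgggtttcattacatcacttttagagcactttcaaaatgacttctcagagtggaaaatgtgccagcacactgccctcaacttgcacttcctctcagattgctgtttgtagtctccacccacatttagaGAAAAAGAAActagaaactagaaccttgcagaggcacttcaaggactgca
Klra2: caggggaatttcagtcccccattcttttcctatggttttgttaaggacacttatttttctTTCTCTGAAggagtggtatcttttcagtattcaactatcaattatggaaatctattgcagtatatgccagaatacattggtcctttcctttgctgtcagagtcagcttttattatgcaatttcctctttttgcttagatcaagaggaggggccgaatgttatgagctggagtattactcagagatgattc
Igtp: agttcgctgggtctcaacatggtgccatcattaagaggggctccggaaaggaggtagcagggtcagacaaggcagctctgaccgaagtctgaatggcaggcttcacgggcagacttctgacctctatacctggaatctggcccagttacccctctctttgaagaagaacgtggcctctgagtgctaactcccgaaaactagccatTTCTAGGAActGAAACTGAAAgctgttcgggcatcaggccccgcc
Lmbr1: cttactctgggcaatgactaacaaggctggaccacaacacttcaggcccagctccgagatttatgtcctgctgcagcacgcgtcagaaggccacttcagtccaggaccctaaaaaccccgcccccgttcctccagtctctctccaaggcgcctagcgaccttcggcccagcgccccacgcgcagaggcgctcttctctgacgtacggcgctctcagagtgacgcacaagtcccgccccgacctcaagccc

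Of the 10 genes named as lower in the T cell-inflamed models, 0 passed the adjusted threshold in treatment-naive tumors (limma), and 3 had an adjusted p under 0.1. All 10 were taken from the genes without overlap between the groups. Lmbr1, a membrane protein whose gene holds the limb enhancer of Sonic hedgehog in an intron, had a TPM of 1.69 in Hepa 1-6, 0.700 in CT26.WT, 0.870 in RAG, 1.60 in MC38 and 2.18 in MBT2, against 3.82 to 6.89 in the non-inflamed models with a median of 4.15. The difference was -1.34 ± 0.22 (limma, adjusted p = 0.0682). At day 8 the T cell-inflamed models had 0.563 to 1.51 TPM of Lmbr1 and the others 3.80 to 8.91, and the difference of -1.73 ± 0.23 passed the test (adjusted p = 0.0105). Within the models in BALB/c hosts, 2 against 4, the difference of Lmbr1 in treatment-naive tumors was -1.65 (adjusted p = 0.280).

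Hebp2, a heme-binding protein, had a TPM of 0.455 to 1.23 in the T cell-inflamed models and of 1.49 to 9.67 in the others, a difference of -1.83 ± 0.33 (limma, adjusted p = 0.0821), and at day 8 it differed by -2.42 ± 0.45 (adjusted p = 0.0665). Map3k20, the kinase ZAK of the ribotoxic stress response, ran from 14.9 to 24.5 against 28.3 to 60.4 TPM and differed by -1.10 ± 0.21 and -1.23 ± 0.26 (adjusted p = 0.0838 and 0.114). The other 7 genes of the rule, which lay without overlap between the groups but further from the threshold, were Tmem181a, the endothelial protocadherin Pcdh12, Apc2, Kif26a, Fam167b, Btbd7 and Ttc14. Their differences ran from -1.16 for Apc2 to -0.19 for Ttc14, with adjusted p values of 0.259 to 0.813. By mean TPM the RAG value of Tmem181a, 7.01, touched the lowest non-inflamed value, 7.00, although the mean log2 values did not overlap.

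**Figure D2:**
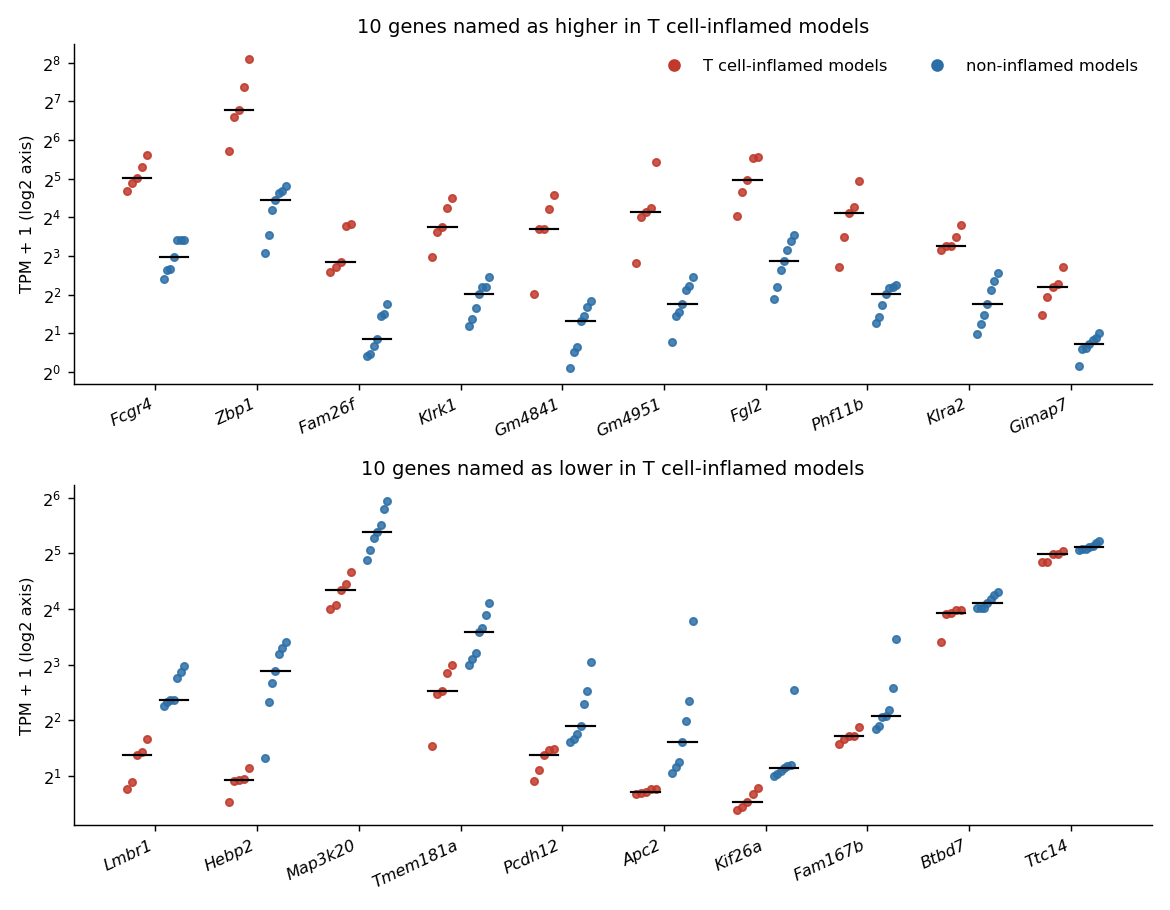
TPM + 1 (log2 axis) of the 10 genes named as higher (top) and the 10 named as lower (bottom) in T cell-inflamed models, treatment-naive tumors. Points are the 12 model means and bars the median of each group in TPM. For Fcgr4 the 5 T cell-inflamed models run from 24.6 to 48.0 TPM and the 7 others from 4.27 to 9.69, while for Ttc14 the groups nearly touch.

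In the day 8 NT tumors, 17273 genes were tested, of which 15 passed as higher (0.0868%) and 1, Lmbr1, as lower (0.00579%). The 15 and 1 were 3 and 24 in a fit of single tumors with model as a random effect, and with 1 model or tumor left out the number higher ran from 6 to 37. At an unadjusted p under 0.05 there were 491 higher (2.84%) and 645 lower genes (3.73%), and the median difference over all genes was -0.06, with 42.8% above 0. The models did not overlap for 85 genes as higher (0.492%) and 57 as lower (0.33%). The 15 were Cxcl9 of the profile, Klrk1, Fam26f, Fgl2, Zbp1 and Gm4951 from above, Batf2, Cfb, Iigp1, Igtp, Serpina3g, Serpina3f and 3 gene models that the annotation gives as pseudogenes, Gm5970, Gm12250 and Gm18301. Batf2, an interferon-induced AP-1 family factor of myeloid cells, had a TPM of 20.5 in Hepa 1-6, 25.3 in CT26.WT, 16.8 in RAG, 17.1 in MC38 and 22.6 in MBT2, against 1.27 to 7.10 with a median of 3.44. It differed by 2.25 ± 0.28 (limma, adjusted p = 0.0105). Cfb, factor B of the alternative complement pathway, ran from 29.9 to 86.2 against 5.74 to 15.7 TPM, a difference of 2.22 ± 0.29 (adjusted p = 0.0105). Both also lay without overlap in treatment-naive tumors.

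The immunity-related GTPase Iigp1 had a day 8 TPM of 94.1 in Hepa 1-6, 52.3 in CT26.WT, 154 in RAG, 51.5 in MC38 and 39.1 in MBT2, against 1.82 to 19.6 with a median of 8.14. Its difference was 3.03 ± 0.43 (limma, adjusted p = 0.0173), and that of its relative Igtp was 2.36 ± 0.38 (adjusted p = 0.0392). Serpina3g, an inhibitor of proteases of lymphocytes and macrophages, differed by 2.82 ± 0.45 (adjusted p = 0.0392), and its near copy Serpina3f by 1.51 ± 0.23 (adjusted p = 0.0277). Members of the Serpina3 and GTPase clusters share much of their sequence, so the split of reads among them is uncertain. Zbp1 and Serpina3g lost their day 8 calls under 23 of 61 alternatives, Igtp under 21 of 61 and Serpina3f under 19 of 60. Fgl2 lost its call under 13 of 61 and Iigp1 and Klrk1 under 12, against 5 for Cfb and 4 for Batf2. Within BALB/c hosts and without the MVD-high models these 9 genes and Lmbr1 all lost the call.

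Of the lower genes, Pde7a, a phosphodiesterase of cyclic AMP, differed by -1.39 ± 0.27, the fatty acid transporter Slc27a3 by -1.33 ± 0.27, Igf2r, the receptor for mannose-6-phosphate and IGF-II, by -1.85 ± 0.38 and Tmem181a by -1.39 ± 0.30 (adjusted p = 0.0818 to 0.114). Tmem181a differed within BALB/c hosts by -0.64 at day 8 and by -0.30 in treatment-naive tumors, where its main difference was -1.03.

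Outside the T cell lists, 41 genes had an adjusted p under 0.1 in treatment-naive tumors, 37 higher and 4 lower. Over all genes the shares at that threshold were 0.234% higher and 0.0228% lower, and in the day 8 NT tumors 0.232% and 0.0289%. All 41 differed in the same direction in the day 8 NT tumors, 27 of them without overlap between the models, and 12 passed the adjusted threshold there. Over all genes at day 8, 42.8% were above 0, 0.492% were without overlap as higher and 0.33% as lower, and 0.0868% and 0.00579% passed. Of the 121 genes outside the T cell lists without overlap in treatment-naive tumors, 115 were tested at day 8. There 113 had the same sign, 44 were again without overlap and 12 passed. The tumors were other ones, but the models were the same, so this compares tumors and not choices of models. Leaving out MBT2 and Renca, which lie at the boundary, left 6 genes higher and 1 lower in treatment-naive tumors, and 9 higher and 2 lower at day 8. Without B16-F10, Renca and BNL 1ME A.7R.1, the 3 models named MVD-high, 0 genes passed as higher at day 8 (limma, 449 at an unadjusted p under 0.05) and 2 as lower. Within BALB/c hosts, 2 models against 4, 0 passed in either direction there (199 higher and 320 lower at an unadjusted p under 0.05).

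**Figure D3:**
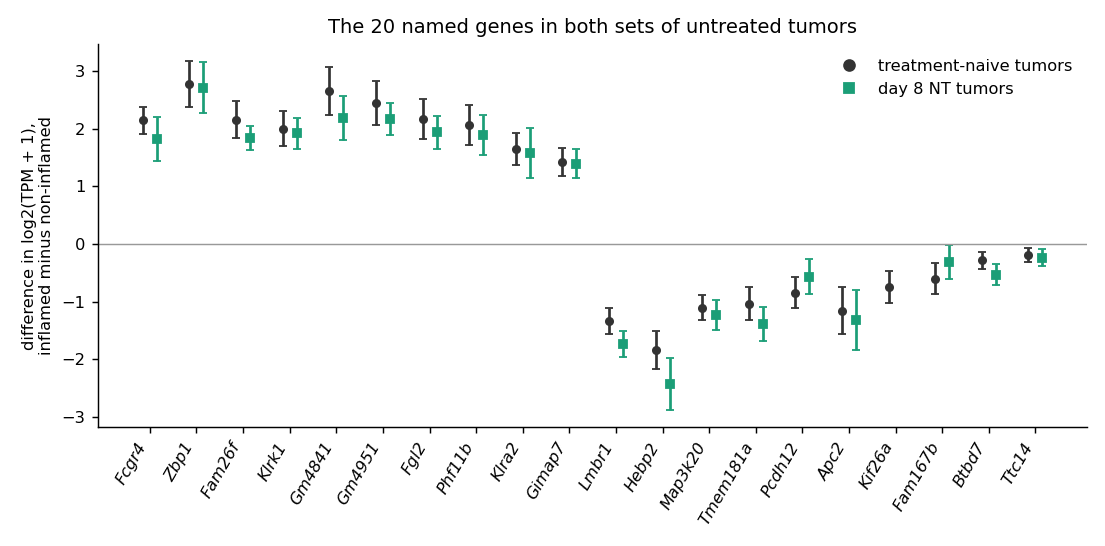
Difference in log2(TPM + 1) between T cell-inflamed and non-inflamed models (y axis, points with SE bars) for the 20 named genes, in treatment-naive tumors (circles) and day 8 NT tumors (squares). The 19 genes with both values have the same sign in both, with Zbp1 at 2.77 and 2.71 and Lmbr1 at -1.34 and -1.73. Kif26a was under the minimum TPM at day 8.

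The gene lists place these genes in their pathways. Of the 20 genes of the interferon gamma list, which leaves out the profile genes, all 20 were above 0 and 15 were higher at an unadjusted p under 0.05 in treatment-naive tumors (5.28% of all genes), with 0 past the adjusted threshold (limma). Their median difference was 2.04, against 0.07 over all genes. Of the 20, 3 were without overlap (0.65% of all genes). The summed TPM of the list overlapped, from 577 in MBT2 to 2993 in Hepa 1-6 against 178 in KLN205 to 621 in EMT6. At day 8, 18 were above 0, 15 were higher at an unadjusted p under 0.05 (2.84% of all genes), 2 passed (Iigp1 and Igtp), and the median was 1.91 against -0.06 over all genes. There 5 were without overlap (0.492% of all genes), and the sums nearly met, at 622 in MBT2 and 618 in EMT6. The ligand gene Ifng had 8.21 TPM in Hepa 1-6, 1.76 in CT26.WT, 0.823 in RAG, 2.29 in MC38 and 1.10 in MBT2, and at most 0.450 in the non-inflamed models. Ifng thus reached the minimum mean TPM of 1 only through the T cell-inflamed models. Its difference of 1.35 ± 0.34 (limma, adjusted p = 0.217) is given as a description. In the day 8 NT tumors and within BALB/c hosts Ifng was under the minimum.

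Receptor and kinase genes upstream of the targets did not pass the test. The receptor chain Ifngr1 differed by 0.42 ± 0.37 and the kinase Jak2 by 0.52 ± 0.42 (limma, adjusted p = 0.862 and 0.847), and both sets of values overlapped, with Jak2 at 14.5 to 68.9 TPM against 10.6 to 45. Within BALB/c hosts Ifngr1 differed by 0.06 and Jak2 by -0.21. Further down, the chemokine Cxcl10 had a TPM of 241 in Hepa 1-6, 46.2 in CT26.WT, 90.5 in RAG, 728 in MC38 and 89.6 in MBT2, against 2.06 to 49.97 with a median of 15.1. Its difference of 3.35 ± 0.71 was the largest of the list (adjusted p = 0.116), and CT26.WT lay within the range of the non-inflamed models. Cxcl11, the ligand of the same receptor, differed by 2.21 ± 0.40 and the feedback inhibitor Socs1 by 1.79 ± 0.41, both without overlap (adjusted p = 0.0821 and 0.154). The guanylate-binding protein Gbp5 differed by 2.49 ± 0.52, Gbp2 by 2.45 ± 0.79, and the transcription factor Irf1 by 1.27 ± 0.39 (adjusted p = 0.107 to 0.422).

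All 22 genes of the type I interferon-stimulated list were higher at an unadjusted p under 0.05 in treatment-naive tumors (5.28% of all genes), 11 of them without overlap (0.65% of all genes), with a median of 1.70. At day 8 the count was 20 (2.84% of all genes), with a median of 1.47. Zbp1 was the member that passed at day 8. Bst2, the tetherin that holds virus particles at the cell surface, had a TPM of 206 in Hepa 1-6, 236 in CT26.WT, 247 in RAG, 644 in MC38 and 156 in MBT2, against 38.4 to 107 with a median of 81.2, and it differed by 1.79 ± 0.34 (limma, adjusted p = 0.0838). Irf7, the factor that amplifies type I interferon, differed by 2.02 ± 0.39, Oasl2 of the oligoadenylate synthetase family by 2.12 ± 0.42, Xaf1 by 1.72 ± 0.33 and Irf9 by 0.98 ± 0.24 (adjusted p = 0.0838 to 0.169), all without overlap. The summed TPM of the list was 894 to 3443 in the T cell-inflamed models, highest in MC38, and 203 to 503 in the others. At day 8 the sums overlapped, from 564 in Hepa 1-6 to 2969 in MC38 against 264 to 644, and 4 of the 22 genes were without overlap (0.492% of all genes).

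MHC class I loading genes followed, with 11 of 14 higher at an unadjusted p under 0.05 (5.28% of all genes) and a median of 1.54. At day 8 the count was 7 (2.84% of all genes) and the median 0.96. B2m, the light chain of class I, had a TPM of 2774 in Hepa 1-6, 1706 in CT26.WT, 1277 in RAG, 2007 in MC38 and 1880 in MBT2, against 139 to 1274 with a median of 662. Its difference was 1.69 ± 0.45 (limma, adjusted p = 0.245), and RAG and Renca had nearly the same level. The peptide transporter Tap1 differed by 2.07 ± 0.42, the immunoproteasome subunit Psmb9 by 2.08 ± 0.50, and the heavy chains H2-K1 and H2-D1 by 2.25 ± 0.52 and 1.68 ± 0.61 (adjusted p = 0.101 to 0.514). Within BALB/c hosts the difference of H2-K1 was 0.94 and that of H2-D1 1.25 (adjusted p = 0.957 for both). B2m, Tap1 and Psmb9 differed there by 0.90, 1.04 and 1.14. The chaperones Canx and Calr, which serve many secreted proteins, differed by 0.20 ± 0.30 and 0.19 ± 0.22, and by -0.03 and -0.12 within BALB/c hosts.

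MHC class II and its partners were less even, with 4 of 10 genes higher at an unadjusted p under 0.05 (5.28% of all genes) and a median of 0.99, and 2 of 9 (2.84% of all genes) with a median of 0.74 at day 8. The cathepsin Ctss had a TPM of 784 in Hepa 1-6, 202 in CT26.WT, 310 in RAG, 261 in MC38 and 334 in MBT2, against 58.3 to 193 with a median of 126, a difference of 1.52 ± 0.36 (limma, adjusted p = 0.159). The costimulator Cd86 differed by 1.02 ± 0.27 without overlap (adjusted p = 0.238). The invariant chain Cd74 ran from 286 to 2379 against 116 to 999 TPM, so the groups overlapped at a difference of 1.5 ± 0.62, and the class II transactivator Ciita differed by 0.72 ± 0.51 (adjusted p = 0.602 and 0.824). Hepa 1-6 and RAG were the high models for both.

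**Figure D4:**
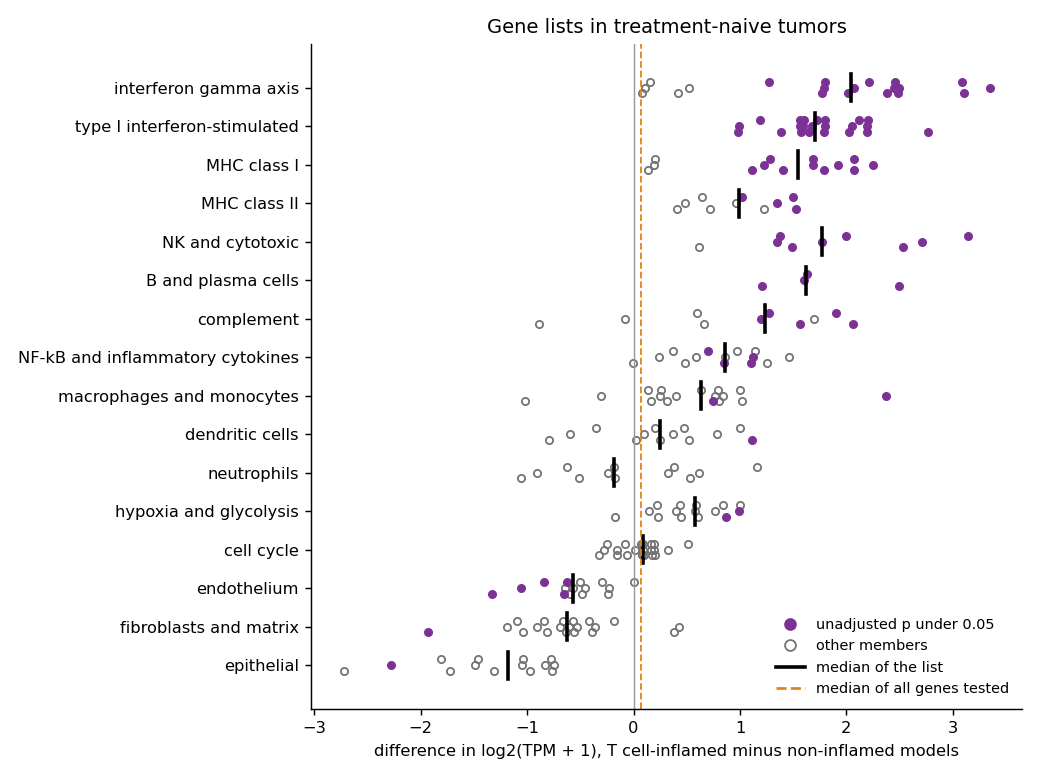
Difference in log2(TPM + 1) between T cell-inflamed and non-inflamed models (x axis) for the members of 16 gene lists, treatment-naive tumors. Each point is a gene, filled where the unadjusted p was under 0.05, and the black bar is the list's median. The dashed line is the median of all genes, 0.07. The interferon, class I and cytotoxic lists lie to the right with medians of 1.54 to 2.04, and the endothelial, matrix and epithelial lists to the left.

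Of 12 genes of NK cells and cytotoxic granules, 9 reached the minimum TPM. Of these 8 were higher at an unadjusted p under 0.05 (5.28% of all genes), 6 without overlap (0.65%), with a median of 1.77. At day 8, 6 of 8 were higher (2.84%), Klrk1 passed and the median was 1.62. Gzmb, the granule protease granzyme B, had a TPM of 45.6 in Hepa 1-6, 28.3 in CT26.WT, 3.58 in RAG, 73.3 in MC38 and 16.1 in MBT2, against 0.217 to 3.85 with a median of 2.06. Its difference was 3.14 ± 0.58 (limma, adjusted p = 0.0821). The groups do not overlap on the mean log2 scale on which the test was made, whereas by mean TPM the RAG value lay under the highest non-inflamed value. Without RAG, the adjusted p of Gzmb was 0.00767 and that of Prf1 0.00185 (limma), and the number of genes passing as higher went from 1 to 18.

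Granzyme A (Gzma) ran from 9.04 to 37.7 against 0.357 to 9.97 TPM, a difference of 2.71 ± 0.47, and perforin (Prf1), the pore through which granzymes enter, from 1.41 to 19.4 against 0.203 to 1.44, a difference of 2.53 ± 0.46 (limma, adjusted p = 0.0810 and 0.0821). BNL 1ME A.7R.1 held the 9.97 TPM of Gzma. Ncr1, the NK cell receptor NKp46, differed by 1.38 ± 0.30 and the transcription factor Eomes by 0.62 ± 0.50 (adjusted p = 0.119 and 0.847). The defining NK genes Klrb1c and Tbx21, and Fasl, were under the minimum TPM. NK cells and cytotoxic T cells share most of this list, and the table does not separate them.

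The T cell markers are given as a description, since they follow the choice of the groups. Of 26, 25 reached the minimum TPM and all 25 were above 0 in treatment-naive tumors, with differences of 0.33 to 2.19 and a median of 1.21. Their summed TPM was 62.7 in RAG, the lowest of the T cell-inflamed models, and 412 in Hepa 1-6, the highest, against 22.2 in KLN205 to 55.8 in Renca. In the day 8 NT tumors 20 markers reached the minimum and all 20 were above 0 with a median of 1.18. Within BALB/c hosts the treatment-naive median was 0.61 with 16 of 19 markers above 0. With a pseudocount of 0.1 and all models it was 1.81. The Cd8a gene of the profile had a TPM of 22.0 in Hepa 1-6, 4.79 in CT26.WT, 1.38 in RAG, 4.06 in MC38 and 0.723 in MBT2, against 0.0833 to 1.05. MBT2 thus lay inside the range of the non-inflamed models for Cd8a.

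Within the profile, 17 of the 18 genes were above 0, with a median of 1.72. Cxcl9, the chemokine that draws in Cxcr3-bearing lymphocytes, was farthest apart, with a TPM of 315 in Hepa 1-6, 60.3 in CT26.WT, 106 in RAG, 67.9 in MC38 and 44.3 in MBT2, against 0.743 to 17.8, a difference of 3.66 ± 0.58. Nkg7 of cytotoxic granules differed by 2.58, the chemokine Ccl5 by 2.41, the checkpoint ligands Cd274 and Pdcd1lg2 by 2.16 and 1.95, Ido1, which degrades tryptophan, by 2.14, and the receptors Lag3 and Tigit by 1.91 and 1.40. The presentation genes H2-Eb1, H2-T23, H2-Aa and Psmb10 differed by 1.5 to 1.72, Cxcr6 by 0.80, Cd27 by 0.70 and Cmklr1 by 0.38. Cd276 (B7-H3) went the other way, at -0.55, with 6.40 to 39.1 TPM against 12.0 to 27.4. Of the 18, only Cxcl9 passed the adjusted threshold at day 8, where it differed by 3.86 ± 0.48 (limma, adjusted p = 0.0105).

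B and plasma cell genes were highest in Hepa 1-6. Of 12, 8 were under the minimum TPM, including Ms4a1, Cd79a and Cd79b. The 4 tested were all higher at an unadjusted p under 0.05 in treatment-naive tumors (5.28% of all genes) and 3 of 4 at day 8 (2.84%). Their median was 1.62, and it was 0.53 within BALB/c hosts, 0.92 after rescaling over protein-coding genes, 0.47 over all 12 genes with no minimum TPM and 2.86 with a pseudocount of 0.1. The immunoglobulin kappa constant gene Igkc had a TPM of 310 in Hepa 1-6, 3.06 in CT26.WT, 2.68 in RAG, 3.26 in MC38 and 21.8 in MBT2, against 0.273 to 3.19, and it differed by 2.49 ± 0.90 (limma, adjusted p = 0.510). The TPM of Ighm, the mu heavy chain, was 186 in Hepa 1-6 and at most 16.1 in the other 11 models. Pax5 had 7.28 TPM in MC38 but 0.133 in CT26.WT and 6.41 in Renca, a difference of 1.63 ± 0.59 (adjusted p = 0.510).

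Of 17 macrophage and monocyte genes, 15 were above 0 in treatment-naive tumors (58.5% of all genes), with a median of 0.63. The median was 0.34 without CT26.WT, 0.32 without B16-F10, 0.25 without the MVD-high models and 0.23 within BALB/c hosts. Ly6c2 and Adgre1 were the 2 that were higher at an unadjusted p under 0.05 (5.28% of all genes), and at day 8 there was 1 of 17 (2.84%). Ly6c2, of inflammatory monocytes, had 138 TPM in MC38 and 8.92 in RAG against 4.33 to 16.2, a difference of 2.37 ± 0.55 (limma, adjusted p = 0.157), and 0.73 within BALB/c hosts. The macrophage sialomucin Cd68 differed by 1.00 ± 0.46 and the scavenger receptor Cd163 by -1.02 ± 0.65 (adjusted p = 0.700 and 0.802). Of 12 neutrophil genes 0 had an unadjusted p under 0.05 in limma (5.28% of all genes as higher and 1.84% as lower), with a median of -0.18. Within BALB/c hosts the neutrophil median was -1.17 with 1 of 12 genes above 0, and without the MVD-high models it was -0.68. Of 13 dendritic cell genes 1 had an unadjusted p under 0.05, Irf8, with 1.11 ± 0.38 and 108 TPM in Hepa 1-6 (adjusted p = 0.465). The defining dendritic cell genes Flt3 and Xcr1 were under the minimum TPM.

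Complement genes were higher in part, with 5 of 10 at an unadjusted p under 0.05 (5.28% of all genes) and a median of 1.24, and 3 of 10 (2.84%) with a median of 1.03 at day 8. Cfb, which passed at day 8, had a treatment-naive TPM of 123 in Hepa 1-6, 37.3 in CT26.WT, 40.2 in RAG, 66.4 in MC38 and 47.3 in MBT2, against 5.22 to 25.4, a difference of 2.06 ± 0.39 (limma, adjusted p = 0.0838). C3 was 696 in Hepa 1-6 and 226 in RAG but 36.6 to 56.4 in the other T cell-inflamed models, against 9.24 to 152, and it differed by 1.70 ± 0.83, and C1s1 by 1.90 ± 0.78 (adjusted p = 0.727 and 0.598). The median of the complement list ran from 0.90 to 1.49 when models were left out singly. Within BALB/c hosts it was 0.58, with Cfb at 1.04 and C3 at 0.50 (adjusted p = 0.720 and 0.980). The count of complement genes higher at an unadjusted p under 0.05 was 2 without Hepa 1-6 (4.91% of all genes there) and 1 without the models in male hosts (3.99%).

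Among NF-kB and inflammatory cytokine genes, 4 of 14 were higher at an unadjusted p under 0.05 (5.28% of all genes) with a median of 0.86, as Tnf with 0.85 ± 0.33, while the monocyte chemokine Ccl2 differed by 1.46 ± 0.72 with overlap (adjusted p = 0.560 and 0.730). Within BALB/c hosts Tnf differed by 0.12 and Ccl2 by 0.45. The count of 4 went to 2 of 14 with upper-quartile rescaling (3.59% of all genes there), 0 of 15 after rescaling over protein-coding genes (3.29%), 0 of 14 without Hepa 1-6 (4.91%), 1 of 14 without MC38 (4.4%) and 0 of 13 within BALB/c hosts (2.38%), and the median ran from 0.09 to 1.09 over these and the other models left out.

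Of the genes of suppressive enzymes and cytokines, Nos2, the inducible nitric oxide synthase, was higher by 1.63 ± 0.68, with 92.9 TPM in Hepa 1-6 and 3.81 in MBT2 against 1.40 to 9.10 (limma, adjusted p = 0.621). Tgfb2 and Tgfb3 were lower by -1.38 ± 0.54 and -1.19 ± 0.38 (adjusted p = 0.560 and 0.425). Tgfb3 ran from 4.73 to 11.3 TPM in the T cell-inflamed models and from 5.17 to 28.7 in the others. The median of the 9 genes tested was 0.31, but its sign depended on the models: it was -0.86 without the MVD-high models, -0.39 without MBT2 and Renca, -0.35 within BALB/c hosts, and -0.13, -0.12 and -0.01 without B16-F10, Renca or MBT2 alone. Hypoxia and glycolysis genes were above 0 for 14 of 15 (58.5% of all genes) with a median of 0.57, and 2 had an unadjusted p under 0.05 (5.28% of all genes), as Bnip3 with 0.99 ± 0.36, and the enzyme Aldoa differed by 0.57 ± 0.34 (adjusted p = 0.510 and 0.792). At day 8 the median was 0.12. Of 21 cell cycle genes 0 had an unadjusted p under 0.05 (limma), and their median of 0.08 was -0.09 after rescaling over protein-coding genes.

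Stromal lists lay on the other side of 0. Of 15 endothelial genes, 5 were lower at an unadjusted p under 0.05 (1.84% of all genes), with a median of -0.57, which was -1.20 within BALB/c hosts. At day 8, 1 was lower (3.73% of all genes) and the median was -0.34. Eng (endoglin) had a TPM of 21.9 in Hepa 1-6, 12.5 in CT26.WT, 11.7 in RAG, 18.2 in MC38 and 14.9 in MBT2, against 16 to 87.6 with a median of 43.7, and it differed by -1.33 ± 0.36 (limma, adjusted p = 0.247). Sparcl1 differed by -1.06 ± 0.48, Pcdh12 by -0.84 ± 0.27 and the angiopoietin receptor homolog Tie1 by -0.63 ± 0.27 (adjusted p = 0.422 to 0.693). Kdr, one of the VEGF receptors that LEN inhibits, differed by -0.57 ± 0.36 in treatment-naive tumors and by -0.13 ± 0.29 at day 8 (adjusted p = 0.801 and 0.947), and without the MVD-high models its day 8 difference was 0.13.

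The study measures microvessel density (MVD) by immunohistochemistry, which set its MVD-high class, and estimates it from RNA with a score of 6 endothelial genes. That score was rebuilt here as the mean log2(TPM + 1) of Cdh5, Eng, Kdr, Pcdh12, Sparcl1 and Tek. It was 2.78 ± 0.199 (SD, n = 5 models) in T cell-inflamed and 3.60 ± 0.496 (SD, n = 7 models) in non-inflamed models. The difference was -0.817 (two-sided exact permutation test over 792 ways to choose the models, p = 0.00884, adjusted over 5 single values p = 0.0442). With the median of the tumors of a model in place of their mean, the difference was -0.780 and the call was lost (exact permutation p = 0.0114, adjusted p = 0.0568). All 3 MVD-high models of the study are non-inflamed, so low T cell inflammation and high vessel density cannot be told apart in them. Among the other 4 non-inflamed models the difference of the score was -0.488 (exact permutation p = 0.0317, adjusted over the same 5 values p = 0.0926, so the call was lost) and the median of the endothelial list -0.37.

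Fibroblast and matrix genes had a median of -0.62 with 1 of 20 lower at an unadjusted p under 0.05, against 1.84% of all genes. That gene was Acta2, smooth muscle actin, with 6.32 to 26.2 TPM against 9.40 to 308 and a difference of -1.93 ± 0.68 (limma, adjusted p = 0.501). The collagen Col1a1 and fibronectin (Fn1) overlapped between the groups, at -0.90 ± 0.82 and -0.69 ± 0.86, with Fn1 highest of all in Hepa 1-6 at 1717 TPM. Within BALB/c hosts the list's median was -1.98 and the difference of Col1a1 was -2.81 (adjusted p = 0.190). All 14 epithelial genes tested were below 0 with a median of -1.18, as Cdh1 (E-cadherin) with -2.28 ± 0.84 and the keratin Krt8 with -2.72 ± 1.71 (adjusted p = 0.532 and 0.801). Without KLN205 the epithelial median was -0.45, without the MVD-high models -2.07 and within BALB/c hosts -1.87. The TPM of Krt8 was 336 in Hepa 1-6 and 0.103 in CT26.WT, and among the non-inflamed models it was listed at 0 in B16-F10 and was 516 in KLN205, so single lines within a group differed more than the groups.

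Host strain differed between the groups, with 2 of 5 T cell-inflamed and 4 of 7 non-inflamed models in BALB/c hosts. In those 6 models alone the median of the interferon gamma list was 1.48 with 17 of 20 genes above 0, that of the type I list 1.19 with 22 of 22, and that of the cytotoxic list 1.34 with 8 of 8. The median of the class I list was 0.71 there, that of the NF-kB list 0.09 and that of the dendritic cell list -0.24. Fcgr4 differed by 2.02 and Zbp1 by 2.52 there, against 1.15 for Fgl2 and 1.21 for Klrk1 (limma, adjusted p = 0.208 to 0.720 for these 4 genes). In treatment-naive tumors Fgl2, Klrk1 and Phf11b of the 10 higher genes, and Tmem181a of the 9 lower genes compared, were smaller there by more than 1.5 times.

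The composition of the RNA also varied. Protein-coding genes took 53.9% ± 6.16 (SD, n = 5) of the TPM of T cell-inflamed and 47.5% ± 6.72 (SD, n = 7) of non-inflamed models, the non-coding Rn7s1 and Rn7sk 18.5% ± 2.83 and 23% ± 4.09, and mitochondrial genes 5.65% ± 1.25 and 6.39% ± 1.07 (exact permutation p = 0.124, 0.0644 and 0.294, adjusted over 5 single values 0.206, 0.161 and 0.368). The number of genes above 1 TPM was 15859 ± 556 and 15925 ± 535 (exact permutation p = 0.840). How deeply each tumor was sequenced cannot be read from TPM. When TPM was rescaled over protein-coding genes, the median of all genes moved from 0.07 to -0.07 and the unadjusted calls from 925 higher and 322 lower to 471 higher and 551 lower, and with rescaling by the upper quartile they were 636 and 590. The interferon gamma median was 1.97 and 1.95 under the 2 rescalings. The balance of higher and lower calls over all genes thus depended on the scaling, and the type I and cytotoxic medians were 1.59 and 1.68 after rescaling over protein-coding genes.

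The change under LEN is a measure that did not enter the choice of the groups. For each model it was taken as the mean log2(TPM + 1) of LEN tumors minus that of NT tumors, and the difference between the groups was tested over 17351 genes. With limma, 0 genes passed as changing more upward and 0 as changing more downward in T cell-inflamed models (0% for both), the smallest adjusted p being 0.988, while 511 (2.95%) and 181 (1.04%) had an unadjusted p under 0.05. The median difference over all genes was 0.04, with 60.9% above 0. Zbp1, for example, had a difference of -0.78 ± 0.45 (limma, adjusted p = 0.988), so the spread between models was wide.

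The direction of interferon genes under LEN varied between models. The median change of the interferon gamma list was 0.34 in Hepa 1-6, 0.58 in CT26.WT, 0.50 in RAG, -0.09 in MC38 and -0.41 in MBT2, and in the non-inflamed models it ran from -0.08 in KLN205 through a median of 0.63 to 2.17 in B16-F10. The groups overlapped, and the median difference of the 20 genes was -0.48 with 19 below 0 and 1 at an unadjusted p under 0.05 (1.04% of all genes as lower). For the type I list it was -0.51 with 21 of 22 below 0 and 1 at an unadjusted p under 0.05, and for the cytotoxic list -0.30 with 8 of 8 below 0 and 0. The Igtp change ran from 0.10 in LL/2 through a median of 1.01 to 2.88 in B16-F10 among the non-inflamed models, and from -0.45 to 0.93 in T cell-inflamed models, with overlap. Cxcl10 and Gzmb differed by -0.51 ± 0.48 and -0.39 ± 0.43 and by 0.22 and 0.06 within BALB/c hosts, and Cxcl10 by 0.08 without the MVD-high models (limma, adjusted p = 0.988 for both main differences).

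Markers of host tissue around the tumor did not pass in the same comparison. The skeletal muscle list changed by 4.61 in BNL 1ME A.7R.1 and 3.40 in B16-F10 under LEN, by 0.03 to 0.86 in the other 5 non-inflamed models and by -0.38 to 0.77 in T cell-inflamed models, so that apart from those 2 models the groups overlapped. Its median difference was -1.35 with 5 of 5 genes below 0 and 0 at an unadjusted p under 0.05, and the fat list had a median difference of -0.93 with 1 of 4 lower at an unadjusted p under 0.05 (limma, 1.04% of all genes). In the day 8 NT tumors the same lists had medians of 0.90 and 0.72, with a summed muscle TPM of 28.7 to 138 in T cell-inflamed and 9.83 to 81.7 in non-inflamed models. The part of muscle and fat in the other differences was not tested.

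The median change of the endothelial list under LEN was below 0 in all 12 models, from -0.98 in MBT2 to -0.22 in Hepa 1-6 among T cell-inflamed and from -1.36 in Renca to -0.56 in EMT6 among non-inflamed models. The difference between the groups had a median of 0.12 and 0 of 14 genes had an unadjusted p under 0.05 in limma. The median change of hypoxia and glycolysis genes was 0.42 to 0.57 in the T cell-inflamed models, whereas the non-inflamed models ran from -0.01 in LL/2 to 0.67 in Renca. The median change of neutrophil genes was above 0 in all 7 non-inflamed models, from 0.11 to 1.86 with LL/2 the highest, and it was -0.24 to 0.45 in T cell-inflamed models, where 3 of 5 were above 0. Of these 12 genes, 12 differences were below 0, 2 at an unadjusted p under 0.05 (1.04% of all genes as lower), with a median of -0.49. None of these differences between the groups passed the adjusted threshold.

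Of the single genes named by the rule for the change under LEN, Bckdhb, a subunit of the enzyme complex that breaks down branched-chain amino acids, changed by 0.14 in Hepa 1-6, 0.25 in CT26.WT, -0.09 in RAG, 0.20 in MC38 and 0.15 in MBT2, against -0.48 to -0.15 with a median of -0.32, a difference of 0.43 ± 0.09 (limma, adjusted p = 0.988). 2610008E11Rik, Lrrcc1, the checkpoint kinase Chek2 and the linker histone H1f0 had differences of 0.31 to 0.43, and the nucleolar methyltransferase Nop2 and the glycan-branching enzyme Gcnt2 of -0.19 and -0.48 (adjusted p = 0.988). 4T1 had the lowest change for Bckdhb, 2610008E11Rik, Lrrcc1, Chek2 and H1f0. In 1 LEN tumor of 4T1, protein-coding genes took 27.5% of the TPM, against 43.8% and 45.3% in its others. Over the alternatives, which left out each tumor in turn, the Bckdhb difference stayed between 0.37 and 0.49. Igf2, the insulin-like growth factor, changed by 0.11 to 1.42 in the non-inflamed models and by -0.88 to 0.05 in the others. Csf3, the neutrophil growth factor G-CSF, changed by 0.01 to 1.99 in the non-inflamed models, highest in LL/2, and by -0.11 to 0.01 in T cell-inflamed models. These 9 genes were chosen among those whose models did not overlap between the groups. The nearest models of Nop2, H1f0, Lrrcc1 and Csf3 were less than 0.01 apart. Such a lack of overlap was found for 24 genes (0.138%) as higher and 5 (0.0288%) as lower.

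**Figure D5:**
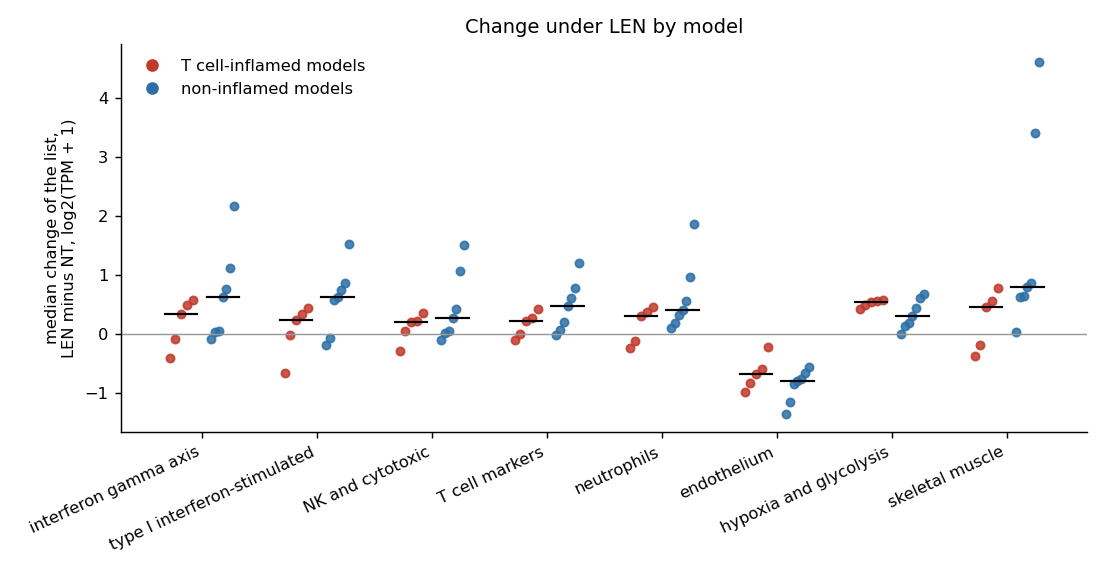
Change under LEN (median over the list's genes of the LEN mean minus the NT mean, log2(TPM + 1), y axis) in each model (points), by list and group, with the median of the group as a bar. B16-F10 is the highest point for the interferon gamma list at 2.17, the endothelial list is below 0 in all 12 models, and BNL 1ME A.7R.1 reaches 4.61 for skeletal muscle.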

How the data were processed

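RNA-seq of 107 subcutaneous tumors of 12 mouse models was used as a table of TPM per gene, deposited by the authors with 50686 genes. The submitters' processing notes name Trimmomatic 0.36, STAR 2.5.2b and RSEM 1.2.31 with GRCm38/mm10. TPM has the same total in each tumor, so the sequencing depth is unknown and no counting intervals can be given. Gene types came from GENCODE release M21. Models were T cell-inflamed or non-inflamed as the study classed them, by its profile of 18 genes in treatment-naive tumors. The 18 mouse genes and the 27 gene lists were written from general knowledge, and the models, members and lists were chosen with earlier results of these data known.

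From TPM, log2(TPM + 1) was averaged over the tumors of a model, genes under a mean TPM of 1 were left out, and 5 against 7 models were compared by limma 3.58.1 with a mean-variance trend in R 4.3.3 (with the data.table package, version 1.17.8), with Benjamini-Hochberg adjustment over all genes and a threshold of 0.05. The fit was tested on simulated data. The change under LEN was the LEN mean minus the NT mean of a model, fitted likewise. Single values were compared by two-sided exact permutation of the models, adjusted over 5 values. Values of a model printed in TPM are means of TPM, while overlap was judged on mean log2 values. Python 3.11.15, numpy 2.4.6, pandas 2.3.3 and matplotlib 3.10.9 served for tables and plots.

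The genes named in full were the 10 protein-coding genes highest and the 10 lowest outside the profile and T cell markers, those past the threshold first and then, in order of unadjusted p, genes whose models did not overlap. For day 8 and the change under LEN 5 more each way were added, and from each list its 2 members of highest mean TPM, some given only within the counts. Other list members, the other genes past the threshold at day 8 and the genes whose promoters are printed were chosen after their values were seen. Alternatives changed the pseudocount, minimum TPM, scaling, trend, host strain, vessel class, host sex, unit of replication and test, and left out each model and tumor. Replicate numbers in the labels did not pair tumors: the correlation of deviations between same-numbered tumors of different models was -0.147 to 0.139 in treatment-naive and -0.109 to 0.207 in day 8 NT tumors. No pair of tumors had over 95% identical values. The labels do not say whether a number marks a shared batch. Other data of the study were not used here. Some members of the lists are not reported by name here.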

Additional observations from a re-analysis of the deposited data

Results flagged for a closer look

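Of 208 groups of model values examined, 16 had a model far from the rest of its group, and chance flags about 1 in 20 groups. All are mean TPM values of treatment-naive tumors unless stated. Among the T cell-inflamed models, Hepa 1-6 stood far above the others for Cxcr6 at 16.3, Ighm at 186, Irf8 at 108 and Jak2 at 68.9. MC38 stood far below for Btbd7 at 9.61, and RAG for the share of TPM in protein-coding genes at 43.3%. Among the non-inflamed models, BNL 1ME A.7R.1 stood far above the others for the cytotoxic genes Gzma at 9.97 and Ncr1 at 2.80, Renca for H2-Eb1 at 227 and Pax5 at 6.41, 4T1 for Ido1 at 0.840 and Jak2 at 45, KLN205 for Eomes at 7.29, and B16-F10 for Aldoa at 1568 and Kif26a at 4.81. B16-F10 stood far below for Cmklr1 at 3.62.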

How the results depend on the processing

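Treatment-naive counts past the adjusted threshold were 1 higher and 0 lower. They were 2 and 0 with a minimum of 5 TPM or with BALB/c host as a covariate, 6 and 1 without MBT2 and Renca (chosen after seeing the data), 16 and 10 in a fit of single tumors with model as a random effect, and 14 and 8 when that fit had a replicate block. They were 0 and 0 in limma with upper-quartile or protein-coding rescaling, without MVD-high models or without models in male hosts, and by the study's two-group test with unequal variances. With 1 model or tumor left out they ran from 0 to 18 higher and 0 to 1 lower: 18 without RAG, 9 without 1 tumor of RAG, EMT6 or LL/2, 5 without MBT2, 2 without BNL 1ME A.7R.1, 0 without Hepa 1-6 or CT26.WT, and 1 lower without MBT2 or Renca. At day 8 (15 and 1) they were 6 higher with no minimum TPM, 0 lower with a minimum of 5 TPM, 0 and 0 in BALB/c hosts, 0 and 2 without MVD-high models, 3 and 24 in single tumors, 3 and 15 with the replicate block, and 9 and 2 without MBT2 and Renca. Leaving out 1 model or tumor gave 6 to 37 higher and 1 to 4 lower, with 6 or 37 without 1 of 2 CT26.WT tumors, 26 without 1 RAG tumor, 23 without 1 MBT2 tumor, 7 without Hepa 1-6, 8 without Renca, 6 without LL/2, and 4 lower without RAG. The LEN counts were 0 throughout, apart from 1 higher with the replicate block. The cause of these shifts was not tested. Same-numbered tumors showed no sign of pairing, though 2 or 3 tumors per model cannot settle whether they shared a batch.

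Of 8314 named-gene values under alternatives, 8037 kept direction and side of the threshold, 188 lost a call, 80 gained one and 9 changed sign: Jak2 (-0.21), Canx (-0.0296) and Calr (-0.12) in BALB/c hosts, Kdr at day 8 without MVD-high models (0.13), without models in male hosts (0.0555) or without BNL 1ME A.7R.1 (0.00417, the highest with 1 model or tumor left out, the lowest being -0.297 without LL/2), and under LEN Cxcl10 in BALB/c hosts (0.22) and without MVD-high models (0.0780) and Gzmb in BALB/c hosts (0.0560). The number of genes above 1 TPM differed by -286 to 68.8 with 1 model left out, the MVD score by -0.920 to -0.705 (adjusted p = 0.0568 with the median of a model's tumors and 0.0926 without MVD-high models), the Rn7s1 and Rn7sk share by -5.66 to -3.60 percentage points (-5.98 without MVD-high models, exact permutation p = 0.0476, adjusted over 5 values 0.0926), the mitochondrial share by -1.11 to -0.277 and the protein-coding share by 4.99 to 9.06. Of 727 list medians 17 moved beyond the spread. In BALB/c hosts these were B cells 0.53, class I 0.71, NF-kB 0.09, T cell markers 0.61, dendritic cells -0.24, endothelium -1.20, fibroblasts -1.98, neutrophils -1.17 and red cells -0.99. With a pseudocount of 0.1 they were T cell markers 1.81, cytotoxic 2.39 and B cells 2.86. The others were B cells at 0.92 after protein-coding rescaling and 0.47 with no minimum TPM, cytotoxic at 2.62 with a minimum of 5 TPM, and suppressive genes at -0.39 without MBT2 and Renca and -0.86 without MVD-high models.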

Other observations

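The remaining lists had medians close to 0 or moved by single lines. In treatment-naive tumors, 0 of 9 mesenchymal genes, 0 of 10 WNT targets and regulators and 0 of 10 lineage genes of the cancer cells had an unadjusted p under 0.05 in limma, with medians of 0.18, 0.33 and -0.14, and 1 of 8 mismatch repair genes did, with a median of 0.04 (all genes, 5.28% higher and 1.84% lower). The summed TPM of the lineage list was 3911 in Hepa 1-6 and 8481 in B16-F10, and under 1 in RAG and LL/2. Red cell genes had a median of 0.14 with 0 of 4 at an unadjusted p under 0.05, and 1 of 5 skin genes reached the minimum TPM. Under LEN the median change of red cell genes was below 0 in 11 of 12 models, the exception being Hepa 1-6 at 0.25, and it ran from -3.04 to -0.80 in the other T cell-inflamed and from -3.29 to -0.67 in the non-inflamed models. The difference between the groups had a median of 0.22, with 0 of 4 genes at an unadjusted p under 0.05 (limma).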
